A study of Mus musculus with 8 samples.

Results

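The genes described here encode the machinery that makes microRNAs and carries out silencing by them. They are 34 of the 24421 rows of the deposited count table, chosen by symbol: 9 genes of microRNA processing, 7 Argonaute and Tnrc6 genes, 11 genes of deadenylation and decapping, and 7 genes of microRNA tailing or decay. The samples were KPCY cells, a mouse pancreatic cancer line labelled as male. Cells of 1 group (knockdown, 4 libraries) had been transduced with a lentiviral vector that inhibits miR-27a-3p, and cells of the other (scrambled, 4 libraries) with a lentiviral scrambled sequence. Both lines had been under puromycin (2 µg/mL) for 7 days, and RNA was taken 24 hours after seeding. The labels name biological replicates but 1 stable line per group, and do not say whether a line is a pool or a clone. The p-values therefore measure the spread between cultures of these lines, not between independent transductions. Poly(A)-selected RNA was sequenced, so mature microRNAs were not measured.

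In the nucleus, the Microprocessor (Drosha with its partner Dgcr8) cuts a hairpin out of the primary transcript, and exportin 5 with the GTPase Ran carries it to the cytoplasm. Dicer trims the hairpin to a duplex, and 1 strand is loaded into an Argonaute protein. Argonaute binds a Tnrc6 (GW182) protein, which recruits the PAN2-PAN3 and CCR4-NOT deadenylases. The deadenylated message is then decapped by Dcp2 with its activators and degraded by Xrn1. Other enzymes act on the microRNAs themselves: terminal uridylyltransferases tail precursors bound by Lin28, Dis3l2 degrades the tailed precursors, and the ubiquitin ligase receptor Zswim8 promotes the loss of microRNAs that pair extensively with a target.

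The inhibited microRNA and its paralogue are shown because the target sites derive from their shared seed, bases 2 to 8, which is in capitals. Both sequences are from RefSeq (GRCm38.p6, plus strand, chr8:84208727-84208747 for miR-27a-3p and chr13:63300760-63300780 for miR-27b-3p).
miR-27a-3p: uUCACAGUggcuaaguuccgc
miR-27b-3p: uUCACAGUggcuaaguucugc

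The longest GENCODE 3′ untranslated region of each gene was searched on its own strand for the 8mer ACTGTGAA, the 7mer-m8 ACTGTGA and the 7mer-A1 CTGTGAA, each site being counted once as the longest of these. Of the 34 members, 2 held an 8mer (5.88%, against 6.42% of 11363 tested genes with such a region) and 7 held an 8mer or a 7mer-m8 (20.6%, against 17.8%). The members' regions were longer, with a median of 1539.5 bases against 1199. The 8mer and 7mer-m8 sites of the members are printed with the matching bases in capitals, so that each can be read beside the level of its gene. Those of Dcp2 are given by name only, with its values.
Cnot7 8mer (GRCm38, chr8:40492842-40492849, minus strand): gacaagagACTGTGAAatatttag
Dicer1 7mer-m8 (chr12:104690349-104690355, minus strand): ttttttgcACTGTGActataata
Dicer1 7mer-m8 (chr12:104689377-104689383, minus strand): tgaatcatACTGTGAtttaccca
Dcp1a 7mer-m8 (chr14:30525213-30525219, plus strand): taggaatgACTGTGAtaagcagg
Ago2 7mer-m8 (chr15:73106168-73106174, minus strand): cctgtaggACTGTGAcatttatt
Ago2 7mer-m8 (chr15:73101588-73101594, minus strand): agtgccatACTGTGAtctggggc
Ago2 7mer-m8 (chr15:73099897-73099903, minus strand): tcttgcaaACTGTGAtgccacct
Tnrc6a 7mer-m8 (chr7:123192972-123192978, plus strand): agacgtaaACTGTGAcctcacga
Drosha 7mer-m8 (chr15:12935160-12935166, plus strand): ttctaagaACTGTGActgtggcc

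Library totals ran from 19165513 to 23542275 counts. At these depths 3 counts, the limit that a count of 0 allows, correspond to 0.129 to 0.155 CPM (counts scaled to library size), for counting error only. Of the Mir27a precursor a single read was counted, in knockdown replicate 2, and these libraries therefore give no measure of the knockdown itself. Scrambled replicate 2 stood apart from the other scrambled libraries (chi-square per gene of 5.19 to 5.36 in its pairs, at most 2.35 in all other pairs). Members whose call changed without it are given with and without it, as are some other members. All 8 ductal epithelial markers were present in every library, with a summed level of 10826 to 11791 CPM in scrambled and 11521 to 11849 CPM in knockdown libraries, although Epcam stood at only 4.71 to 9.67 CPM. Of 7 fibroblast markers 5 had 0 counts in all libraries, and the list summed to at most 1.41 CPM. The 5 immune markers summed to at most 4.30 CPM, most of it Cd68, and the endothelial and the muscle and fat lists to at most 1.03 and 0.137 CPM. In RNA from whole cultures, fewer cells expressing a gene and less of its RNA per cell cannot be told apart.

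The machinery was present almost in full, and its differences between the lines were small. Of the 34 genes 33 passed the filter on low counts. In the knockdown 10 genes were called higher and 7 lower at an adjusted p under 0.05 by edgeR's quasi-likelihood test, and 16 were not called. The share called, 51.5%, is close to that of all 11797 tested genes (47.9%, with 23.8% higher and 24.1% lower), so the members were not called at a rate that sets them apart. Their median log2 fold change (knockdown over scrambled) was 0.04, beside 0.00170 over all tested genes, and the median size of the change was 0.0963, beside 0.133. In 13 of the 33 genes the CPM of the groups did not overlap, where 42.2% of all tested genes showed this. Against a fold of 1.2 in place of no change, 4 of the 33 tested members remained called: Trim71 and Pan2 higher, Zcchc11 and Dcp2 lower. Of all 11797 tested genes, 584 were then called higher and 523 lower.

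**Figure D1:**
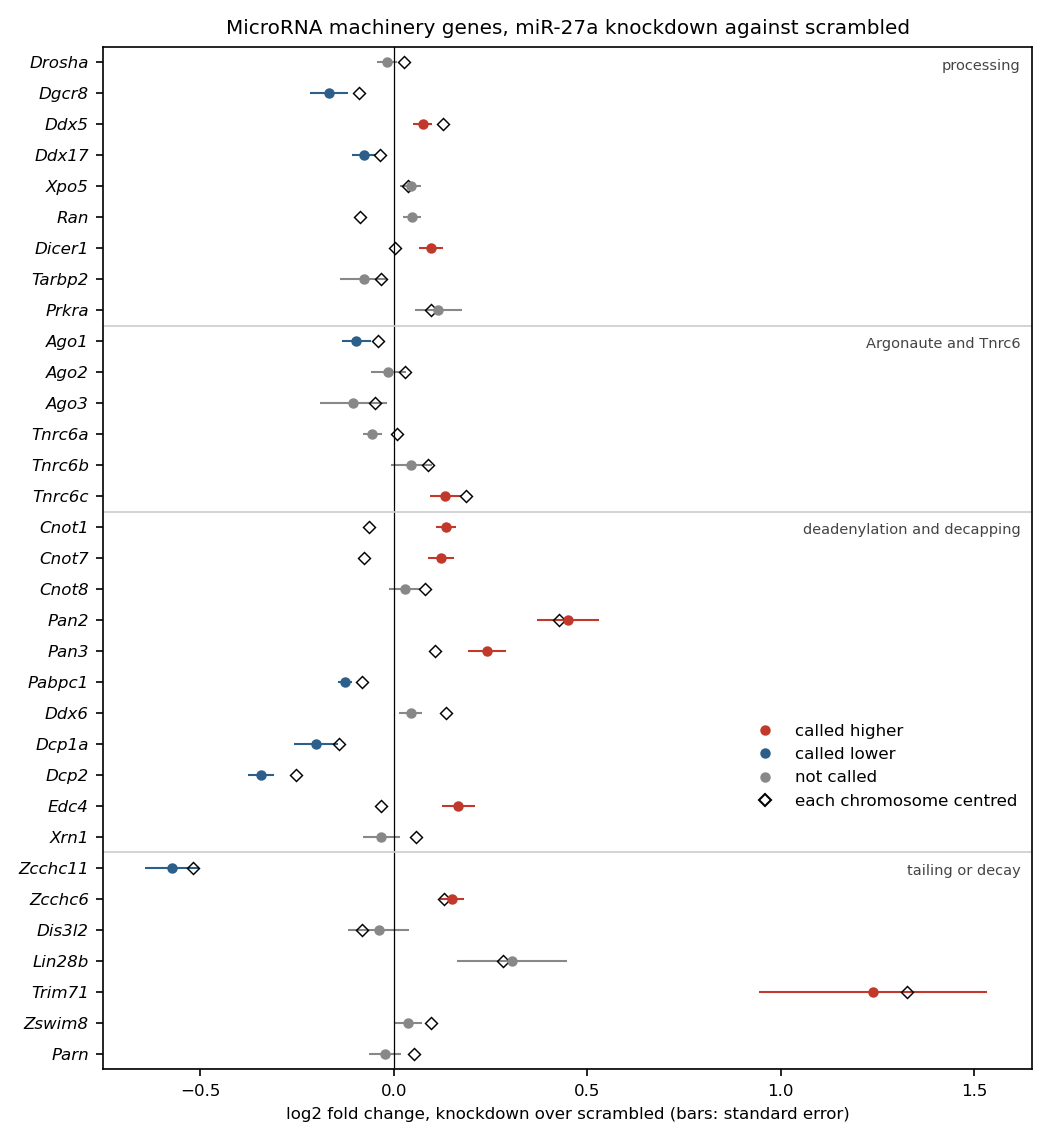
Log2 fold change of each tested member, knockdown over scrambled (filled points, edgeR, n = 4 libraries per group), with its standard error, coloured by call at an adjusted p under 0.05. Open diamonds give the estimate after each chromosome was centred on its own median; those of Cnot1, Cnot7 and Edc4 lie left of 0 and those of Trim71, Pan2, Dcp2 and Zcchc11 keep their side of 0.

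Chromosome medians of the log2 fold change were as large as many of these changes. Medians of several chromosomes are given here, and values with chromosomes centred for many of the genes named. Position along a chromosome was not examined, so a shift of a segment cannot be told from a shift of the whole. Centring takes the same amount from every gene of a chromosome in either case. Chromosome 8, which carries Cnot1, Cnot7 and Edc4, had a median log2 fold change of 0.207 over 647 tested genes, with 404 called higher and 35 lower. Chromosome 5, with Ran and Pan3, had a median of 0.137, chromosome 12, with Dicer1, 0.0957, and chromosome 9, with Ddx6, Xrn1 and Trim71, −0.0854. Chromosome 15 holds 6 tested members and had a median of −0.0485. Chromosome 6 holds no tested member, but the partners Fkbp4, Hnrnpa2b1 and Lsm3 described below, and had a median of −0.108. When every chromosome was centred on its median in each library, 7 members were called higher and 5 lower, where 40.9% of all tested genes were called. Of the 17 members called without centring, 8 were called in the same direction (Ddx5, Tnrc6c, Pan2, Pabpc1, Dcp2, Zcchc11, Zcchc6 and Trim71).

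Among the processing genes the core nuclease of the nucleus did not differ, while its partner was lower and Dicer was slightly higher. Drosha stood at 159 ± 1.34 CPM in scrambled and 157 ± 2.17 CPM in knockdown libraries (SD, n = 4), a log2 fold change of −0.02 (SE 0.0259) that was not called. Dgcr8, the double-stranded RNA-binding subunit of the Microprocessor (chr16:18253948-18289246), had 62.5, 72.3, 60.9 and 61.6 CPM in scrambled replicates 1 to 4 and 58.2, 57.8, 54.3 and 58.6 CPM in knockdown replicates 1 to 4. Every knockdown library was below every scrambled library, and scrambled replicate 2 stood highest. Dgcr8 fell by 0.17 on the log2 scale (1.12-fold lower, SE 0.0485, adjusted p = 0.00680, edgeR). Without scrambled replicate 2 the fall was smaller, −0.11 on the log2 scale (adjusted p = 0.0231), and with chromosomes centred it was −0.09 and not called (adjusted p = 0.146). Because 825 of its exon bases also belong to Trmt2a, transcribed the other way, the Dgcr8 counts are uncertain.

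Dicer1, the nuclease that makes the duplex (chr12:104687742-104751952), had 103, 107, 106 and 103 CPM in scrambled and 117, 110, 109 and 112 CPM in knockdown libraries. The groups did not overlap, but the gap between them was narrow. Its rise of 0.10 on the log2 scale (1.07-fold, SE 0.0314, adjusted p = 0.0147, edgeR) equalled the median of chromosome 12, and with chromosomes centred the log2 fold change was 0.00230. Without knockdown replicate 1 the adjusted p was 0.0764. Dicer1 carries 2 of the 7mer-m8 sites printed above.

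The RNA helicases Ddx5 and Ddx17, closely related cofactors of the Microprocessor, moved in opposite directions by about the same amount. Ddx5 stood at 669.6 to 723 CPM in scrambled and 712 to 734 CPM in knockdown libraries, 1.05-fold higher (adjusted p = 0.0140). Ddx17 stood at 380.1 to 431 CPM in scrambled and 371 to 386 CPM in knockdown libraries, 1.05-fold lower (adjusted p = 0.0373). In both genes the groups overlapped and scrambled replicate 2 was the highest scrambled library. Without it Ddx5 was 0.10 higher on the log2 scale (adjusted p = 7.7e-06), while the fall of Ddx17 shrank to −0.04 and was not called (adjusted p = 0.121). The rise of Ddx5 was not called without scrambled replicate 1 or without scrambled replicate 4 (adjusted p = 0.0501 and 0.0509). Ddx17 was also not called without knockdown replicate 2, 3 or 4 (adjusted p = 0.0749 to 0.108) or by DESeq2 (adjusted p = 0.0527).

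The 4 other processing genes were not called. Xpo5, the export receptor, stood at 177 ± 4.78 against 182 ± 3.04 CPM (scrambled first, SD, n = 4), and Ran, the GTPase that drives export, at 463 ± 6.28 against 478 ± 12.1 CPM (adjusted p = 0.105). Ran lies on chromosome 5, and with chromosomes centred its log2 fold change was −0.09 (adjusted p = 0.00404), the opposite sign to its uncentred value. Dicer's double-stranded RNA-binding partners were not called either, Tarbp2 (TRBP) at 24.3 ± 1.69 against 23.0 ± 0.828 CPM and Prkra (PACT) at 29.2 ± 1.78 against 31.6 ± 2.63 CPM. Without scrambled replicate 2, both Ran (adjusted p = 0.0470) and Prkra (adjusted p = 0.0207) were called higher, and Prkra also without knockdown replicate 2 (adjusted p = 0.0490). Per kilobase of exon, Ddx5 (119 CPM per kb) and Ran (175 CPM per kb) stood far above Drosha (26.8) and Dicer1 (6.25) in scrambled cells.

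Of the 6 tested Argonaute and Tnrc6 genes, Ago1 was called lower, Tnrc6c higher and 4 were not called (33.3% called, beside 47.9% of all tested genes), with a median log2 fold change of −0.03. Ago2, the Argonaute with slicer activity, had 170.3, 142, 164 and 177 CPM in scrambled and 168, 162, 154 and 163 CPM in knockdown libraries. Scrambled replicate 2 was the lowest of all and the groups overlapped fully (log2 fold change −0.01, SE 0.0453, adjusted p = 0.828). Without that library the log2 fold change was −0.07 and was called (adjusted p = 0.0267), so the call on Ago2 rests on scrambled replicate 2. Ago2 holds 3 of the 7mer-m8 sites shown above, in a 3′ untranslated region of 11064 bases. It also shares 219 exon bases with Chrac1 on the opposite strand.

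Ago1 had 66.5, 70.4, 70.9 and 68.8 CPM in scrambled and 66.8, 64.5, 64.8 and 62.8 CPM in knockdown libraries. Knockdown replicate 1 lay above scrambled replicate 1, and the other knockdown libraries lay below all scrambled ones. Its fall (1.07-fold lower, SE 0.0366 on the log2 scale, adjusted p = 0.0341, edgeR) did not hold in most of the alternatives. The adjusted p was 0.0512 with the replicate number as a block, 0.0717 by DESeq2, and 0.0518 to 0.109 in the 6 fits that lost the call when 1 library was left out (all but those without scrambled replicate 1 or knockdown replicate 1). Ago3 was low at 11.6 ± 1.2 against 10.8 ± 0.855 CPM and was not called. Ago4 did not pass the filter, with 0 to 4 counts per library.

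Scaled by exon length, the Argonautes kept the same order in every library. That length is the union of all annotated exons, and which 3′ ends the cells used was not examined. Levels and shares by length are therefore approximate. Ago2 supplied 52.0% to 57.9% of the summed Argonaute level in scrambled and 56.1% to 58.2% in knockdown libraries, Ago1 38.8% to 44.6% and 38.6% to 40.8%, Ago3 3.00% to 3.55% and 3.06% to 3.43%, and Ago4 at most 0.141%. The ranges of the groups overlapped for each gene. The lowest share of Ago2 was that of scrambled replicate 2.

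Of the Tnrc6 genes, the scaffolds that link Argonaute to the deadenylases, Tnrc6c (chr11:117654289-117763439) had 56.1, 54.1, 58.2 and 58.6 CPM in scrambled and 64.9, 60.2, 61.4 and 62.7 CPM in knockdown libraries. All knockdown libraries were higher. The rise was 1.10-fold (log2 fold change 0.13, SE 0.0396, adjusted p = 0.00786, edgeR), on a chromosome with a median of −0.0593. Tnrc6a, per kilobase the most abundant of these genes at 16.7 CPM per kb, stood at 212 ± 1.5 against 204 ± 3.59 CPM, with no overlap but no call (adjusted p = 0.0705). Tnrc6b varied most within the scrambled group of the 3 genes, 86.4 to 109 CPM in scrambled and 97.1 to 107 CPM in knockdown libraries (adjusted p = 0.502). By length, Tnrc6c made up 16.95% to 17.8% of the summed Tnrc6 level in scrambled and 18.5% to 19.8% in knockdown libraries, ranges that did not overlap.

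**Figure D2:**
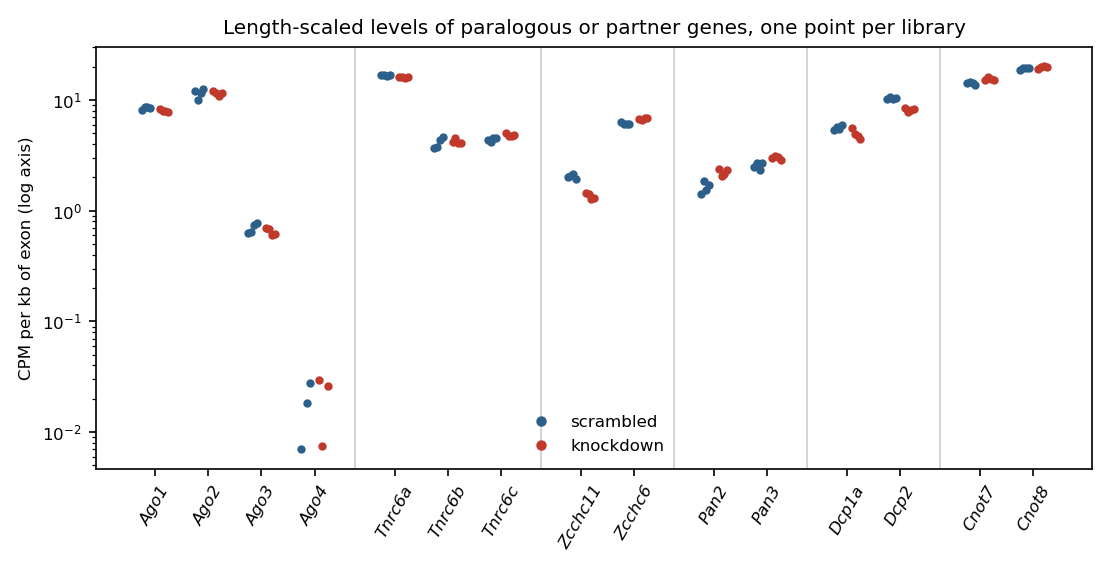
CPM per kilobase of exon (log axis) of genes that are paralogues or partners, 1 point per library, for Argonautes, Tnrc6 proteins, terminal uridylyltransferases, the PAN2-PAN3 complex, the decapping enzyme and its activator, and the CCR4-NOT deadenylases. Libraries with 0 counts of Ago4 cannot be drawn on a log axis. Ago2 and Ago1 lie close together while Ago3 and Ago4 are far lower. Zcchc11, Zcchc6, Pan2, Pan3, Dcp2, Cnot7, Tnrc6a and Tnrc6c separate by group, the last 3 by narrow gaps.

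Of the 11 deadenylation and decapping genes 5 were called higher, 3 lower and 3 not called (72.7% called, beside 47.9% of all tested genes). With chromosomes centred 2 were called higher and 3 lower, where 40.9% of all tested genes were called. Both PAN genes rose, and so did the CCR4-NOT genes Cnot1 and Cnot7 and the decapping scaffold Edc4. The decapping enzyme Dcp2, its activator Dcp1a and the poly(A)-binding protein Pabpc1 fell. The list's median log2 fold change was 0.04, and the median size of the change 0.135, beside 0.133 over all tested genes.

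Pan2, the catalytic subunit of the PAN2-PAN3 deadenylase (chr10:128303335-128321358), had 12.0, 15.8, 13.2 and 14.6 CPM in scrambled and 20.1, 17.5, 18.3 and 19.9 CPM in knockdown libraries. The lowest knockdown library was above the highest scrambled one, scrambled replicate 2. Pan2 rose 1.37-fold (log2 fold change 0.45, SE 0.0790, adjusted p = 6.1e-05, edgeR), and 0.43 on the log2 scale with chromosomes centred. Pan3, the adaptor that binds Tnrc6 and Pan2 (chr5:147430161-147548502), had 37.5, 39.97, 34.9 and 40.1 CPM in scrambled and 44.8, 46.2, 45.8 and 43.1 CPM in knockdown libraries. These groups did not overlap either, and Pan3 rose 1.18-fold (SE 0.0492 on the log2 scale, adjusted p = 0.000327). Pan3 lies on chromosome 5, and with chromosomes centred its log2 fold change was 0.11 and not called (adjusted p = 0.0861).

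Cnot1, the scaffold of the CCR4-NOT complex (chr8:95719451-95807464), had 336, 314, 335 and 335 CPM in scrambled and 366, 362, 357 and 364 CPM in knockdown libraries. The groups were separate, with scrambled replicate 2 lowest. Cnot1 rose 1.10-fold (log2 fold change 0.14, SE 0.0251, adjusted p = 0.000118, edgeR). Cnot7, a catalytic deadenylase of the complex that holds the 8mer printed above, had 83.2, 85.5, 83.1 and 79.6 CPM in scrambled and 87.7, 94.1, 90.9 and 88.1 CPM in knockdown libraries, and rose 1.09-fold (SE 0.0346 on the log2 scale, adjusted p = 0.00566). It shares 247 exon bases with Zdhhc2 on the opposite strand. Its paralogue Cnot8, on chromosome 11, stood at 50.9 ± 1.17 against 51.9 ± 1.25 CPM and was not called (log2 fold change 0.03, SE 0.0394).

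Edc4, the scaffold that brings the decapping enzyme together with its activators (chr8:105880881-105894908), had 81.3, 72.3, 84.3 and 75.7 CPM in scrambled and 87.4, 83.8, 91.5 and 89.9 CPM in knockdown libraries. Knockdown replicate 2 lay just under scrambled replicate 3, the only overlap. Edc4 rose 1.12-fold (SE 0.0427 on the log2 scale, adjusted p = 0.00254, edgeR), and shares 458 exon bases with Nrn1l on the same strand. Its log2 fold change was 0.17, and 0.13 without scrambled replicate 2, the lowest library. The rises of Cnot1, Cnot7 and Edc4 were each smaller than the median of chromosome 8. With chromosomes centred their log2 fold changes were −0.06 (adjusted p = 0.0478), −0.08 (adjusted p = 0.0701) and −0.03 (adjusted p = 0.585).

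Dcp2, the decapping enzyme (chr18:44380502-44424969), had 88.4, 92.1, 89.9 and 91.5 CPM in scrambled and 73.5, 68.2, 71.4 and 72.1 CPM in knockdown libraries. The groups lay far apart relative to their spread. Dcp2 fell by 0.34 on the log2 scale (1.27-fold lower, SE 0.0341, adjusted p = 2.48e-08, edgeR), and by 0.25 with chromosomes centred. Its 3′ untranslated region holds an 8mer, 2 7mer-m8 and 2 7mer-A1 sites for miR-27. Dcp1a, which activates Dcp2 (chr14:30479535-30527063), had 44.5, 47.1, 45.5 and 48.8 CPM in scrambled and 46.5, 40.6, 38.6 and 36.3 CPM in knockdown libraries. Knockdown replicate 1 lay within the scrambled range and the other knockdown libraries below it. Dcp1a fell by 0.20 on the log2 scale (1.15-fold lower, SE 0.0581, adjusted p = 0.00666), and with chromosomes centred it was not called (adjusted p = 0.0550).

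Pabpc1, the main cytoplasmic poly(A)-binding protein and per kilobase the most abundant member, had 1891, 1964, 1908 and 1938 CPM in scrambled and 1792, 1749, 1754 and 1765 CPM in knockdown libraries. The groups were separate, and Pabpc1 fell by 0.13 on the log2 scale (1.09-fold lower, SE 0.0190, adjusted p = 1.04e-05, edgeR). With chromosomes centred the log2 fold change was −0.08 (adjusted p = 0.00212). Neither the helicase Ddx6, which represses translation and promotes decapping, nor the exonuclease Xrn1 was called: Ddx6 stood at 433 ± 20.8 against 446 ± 10.4 CPM, and Xrn1 at 39.3 ± 1.85 against 38.4 ± 1.61 CPM. Ddx6 lies on chromosome 9, and with chromosomes centred it was called higher (log2 fold change 0.13, adjusted p = 0.000562), as it was without scrambled replicate 4 (0.08, adjusted p = 0.0254). Xrn1 shares 604 exon bases with an antisense transcript.

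**Figure D3:**
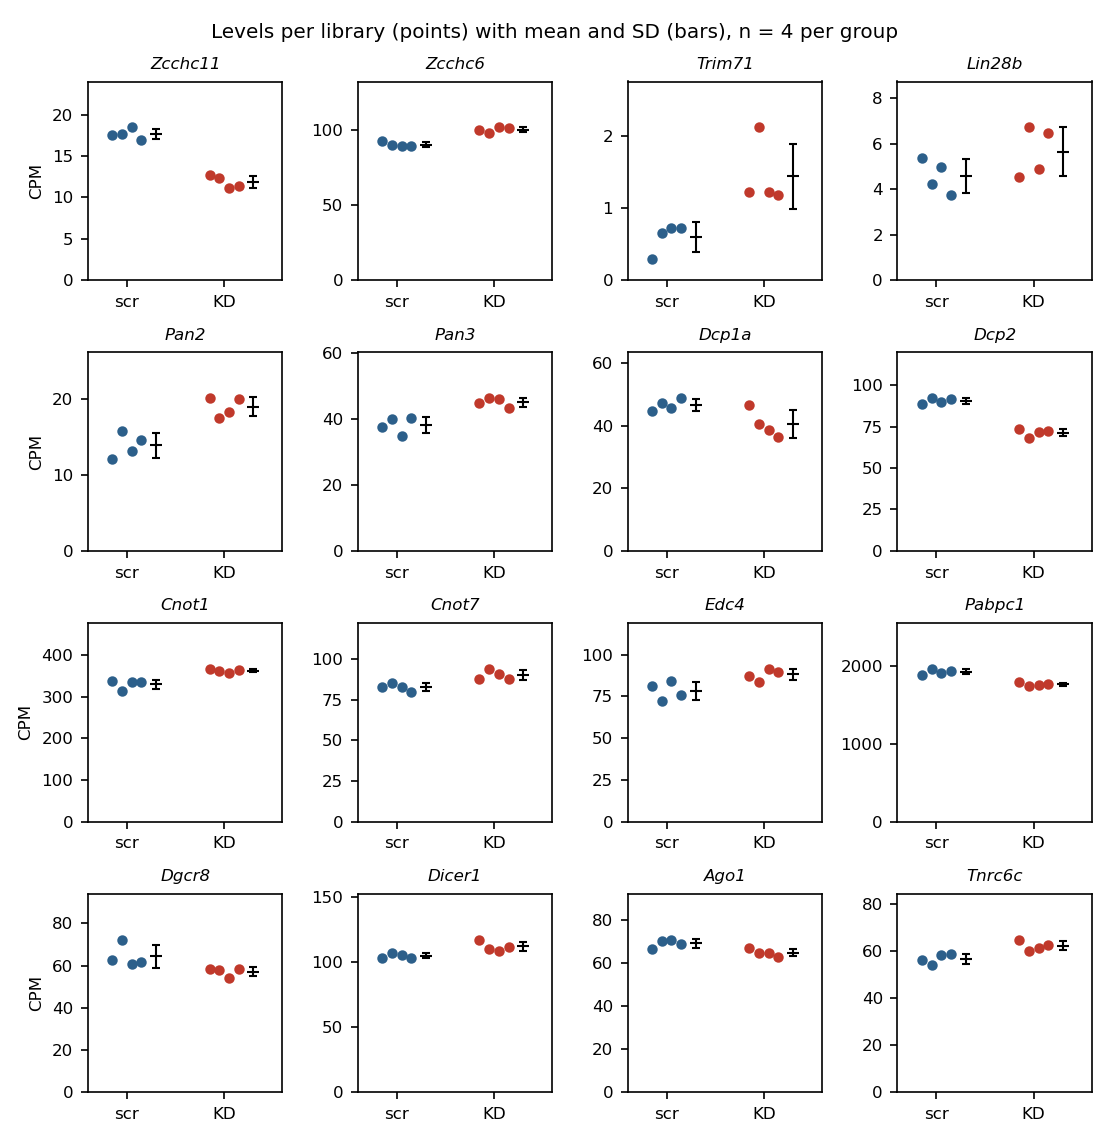
CPM in each library of 16 members (points: scrambled, scr, and knockdown, KD), with the mean and SD of each group (n = 4) as bars and every axis starting at 0. Zcchc11, Zcchc6, Trim71, Pan2, Pan3, Dcp2, Cnot1, Cnot7, Pabpc1, Dgcr8, Dicer1 and Tnrc6c do not overlap between groups, while Lin28b, Dcp1a, Edc4 and Ago1 do.

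The largest changes of the machinery, those of Trim71 and Zcchc11, lay among the 7 tailing and decay genes. Of these 7, 2 were called higher, 1 lower and 4 not called (42.9% called, beside 47.9% of all tested genes). The paralogous terminal uridylyltransferases moved in opposite directions. Zcchc11 (TUT4, chr4:108459426-108559421) had 17.6, 17.7, 18.5 and 16.9 CPM in scrambled and 12.7, 12.3, 11.2 and 11.3 CPM in knockdown libraries. All knockdown libraries were well below the scrambled ones, and Zcchc11 fell by 0.57 on the log2 scale (1.49-fold lower, SE 0.0698, adjusted p = 5.06e-07, edgeR). Zcchc6 (TUT7, chr13:59771561-59823147) had 92.5, 89.6, 89.1 and 89.1 CPM in scrambled and 99.6, 97.8, 102 and 101 CPM in knockdown libraries. Here every knockdown library was higher, and Zcchc6 rose 1.11-fold (log2 fold change 0.15, SE 0.0308, adjusted p = 0.000316). It shares 1299 exon bases with an antisense transcript, so the size of its change is uncertain. Per kilobase, Zcchc11 made up 24.3% to 26.0% of the summed level of both in scrambled and 15.7% to 17.8% in knockdown libraries.

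Trim71, a Lin41-family protein that represses messages and is itself a classical let-7 target (chr9:114507133-114564369), was barely present. It had 6, 13, 17 and 15 counts in scrambled and 24, 41, 24 and 26 counts in knockdown libraries, which correspond to 0.291, 0.654, 0.729 and 0.728 CPM against 1.23, 2.12, 1.23 and 1.18 CPM. The groups did not overlap, and knockdown replicate 2 was well above the others of its group. The rise was 2.36-fold (log2 fold change 1.24, SE 0.295, adjusted p = 0.00143, edgeR), from levels a few times the 0-count limit, and 135 exon bases are shared with C130032M10Rik on the opposite strand. Lin28b, which binds let-7 precursors and blocks their maturation, had 5.39, 4.23, 4.97 and 3.74 CPM in scrambled and 4.55, 6.73, 4.90 and 6.47 CPM in knockdown libraries. The groups overlapped, and the log2 fold change of 0.31 (SE 0.142) was not called (adjusted p = 0.0819). It was called higher without scrambled replicate 1, without knockdown replicate 1, or with no filter on low counts. Its paralogue Lin28a had 0 counts in all 8 libraries.

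The remaining genes that act on microRNAs or their precursors were close to equal. Dis3l2, the exonuclease for uridylated RNA, stood at 12.8 ± 0.601 against 12.4 ± 1.16 CPM (log2 fold change −0.04, SE 0.0790). Parn, a poly(A)-specific exonuclease, stood at 52.0 ± 1.63 against 51.2 ± 2.06 CPM. Zswim8 stood at 91.0 ± 4.93 against 93.4 ± 1.06 CPM and was not called (adjusted p = 0.407). With chromosomes centred its log2 fold change was 0.10 (adjusted p = 0.0286).

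Over all tested genes, with or without a site, 23.8% were called higher and 24.1% lower. The members' calls were also counted by miR-27 site. Of the 7 with an 8mer or 7mer-m8, 2 were called higher (Dicer1 and Cnot7), 2 lower (Dcp1a and Dcp2) and 3 not called, with a median log2 fold change of −0.02. Of the genes with the 8mer, Cnot7 was called higher and Dcp2 lower. With chromosomes centred both were below 0, Cnot7 at −0.08 and not called (adjusted p = 0.0701) and Dcp2 at −0.25 and called. Of the 6 with only a 7mer-A1, 3 were called higher (Tnrc6c, Cnot1 and Trim71), none lower and 3 not called, with a median of 0.09. Of the 20 tested members without a site, 5 were called higher, 5 lower and 10 not called, with a median of 0.04. These counts are too small for a comparison and carry no test.

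The partners of the machinery were described from 5 further lists, of which the called genes with the smallest adjusted p are named, and a few that were not called. Of 16 other genes of the CCR4-NOT complex, its recruiters and poly(A)-binding proteins, 6 were called higher, 5 lower and 5 not called. The share called was 68.75%, beside 47.9% of all tested genes. Btg2 and Btg1, antiproliferative proteins that recruit CCR4-NOT, rose 1.28-fold (12.1 ± 0.825 against 15.5 ± 0.659 CPM, adjusted p = 0.000296) and 1.16-fold (136 ± 11.3 against 157 ± 4.46 CPM). Cnot10, a CCR4-NOT subunit, went from 67.5 ± 0.400 to 57.0 ± 3.05 CPM and fell by 0.24 (log2). Pabpc4, a paralogue of Pabpc1, fell by 0.16 (177 ± 5.76 against 159 ± 2.37 CPM, adjusted p = 9.22e-05). With chromosomes centred Cnot10 was at −0.15 and Pabpc4 at −0.10, both called lower.

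Of 16 genes of decapping and decay from the 5′ end, 3 were called higher, 4 lower and 9 not called. The share called was 43.75%, beside 47.9% of all tested genes, and the median log2 fold change was −0.06. Lsm14a, a P-body protein that binds Ddx6, fell by 0.27 (187 ± 2.37 against 155 ± 3.22 CPM, adjusted p = 1.8e-08). Lsm3, a ring subunit shared with the spliceosomal complex, fell by 0.28 (101.0 ± 3.804 against 82.9 ± 2.12 CPM). With chromosomes centred Lsm14a was at −0.21 and Lsm3, on chromosome 6, at −0.17, both called lower. Lsm4 and Lsm6, ring subunits encoded on chromosome 8, rose 1.14-fold and 1.13-fold, and with chromosomes centred their log2 fold changes were −0.00849 and −0.02 and not called.

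Of 17 processing cofactors 3 were called higher, 6 lower and 8 not called (52.9% called, beside 47.9% of all tested genes). Adarb1, an adenosine deaminase that edits double-stranded RNA, fell by 0.64 (15.2 ± 0.361 against 9.76 ± 0.682 CPM, adjusted p = 2.48e-07). Hnrnpa2b1, a nuclear RNA-binding protein on chromosome 6, fell by 0.19, and with chromosomes centred by 0.08, still called lower. Adar, the other editing enzyme, rose 1.11-fold (adjusted p = 0.00174) and shares 1365 exon bases with Chrnb2 on the opposite strand. Erh, a small Microprocessor cofactor, rose 1.12-fold, and with chromosomes centred it was not called (adjusted p = 0.112).

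Of 23 genes that load Argonaute or act beside it, 5 were called higher, 7 lower and 11 not called. The share called was 52.2%, beside 47.9% of all tested genes. The HSP90 co-chaperones Fkbp5 and Fkbp4 fell by 0.27 and 0.21 on the log2 scale (adjusted p = 2.41e-08 and 5.87e-08), while HSP90 itself (Hsp90aa1 and Hsp90ab1) and Hspa8 were not called. Hspa8 had 2438, 2037, 2452 and 2444 CPM in scrambled and 2318 to 2357 CPM in knockdown libraries. Scrambled replicate 2 was the lowest of all, and the other scrambled libraries lay above every knockdown library. A fit of Hspa8 without scrambled replicate 2 is not given here. With chromosomes centred Fkbp4 was at −0.10 (adjusted p = 0.00101), and Hsp90aa1 (−0.12, adjusted p = 0.000182) and Hsp90ab1 (−0.05, adjusted p = 0.0327) were called lower as well. Ajuba, a LIM protein that binds Argonaute, rose 1.16-fold (113 ± 4.83 against 130.5 ± 4.80 CPM). Tsnax, part of the nuclease complex with translin, also rose 1.16-fold, but lies on chromosome 8 and was not called with chromosomes centred (adjusted p = 0.695).

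Of 13 tested genes of tailing, trimming and target-directed decay, 3 were called higher, 2 lower and 8 not called. The share called was 38.5%, beside 47.9% of all tested genes. The nucleases Dis3 and Exosc10 of the RNA exosome fell by 0.16 and 0.15 on the log2 scale (adjusted p = 0.000115 and 0.000509). With chromosomes centred both were at −0.10 and called lower. Pnpt1, a mitochondrial exonuclease, and Tut1, a uridylyltransferase of U6 RNA, each rose 1.12-fold. With chromosomes centred Tut1, on chromosome 19, was not called (adjusted p = 0.252). Cul3, Arih1 and the elongins listed as Tceb1 and Tceb2, partners of Zswim8 in the ubiquitin ligase or acting beside it, were not called.

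**Figure D4:**
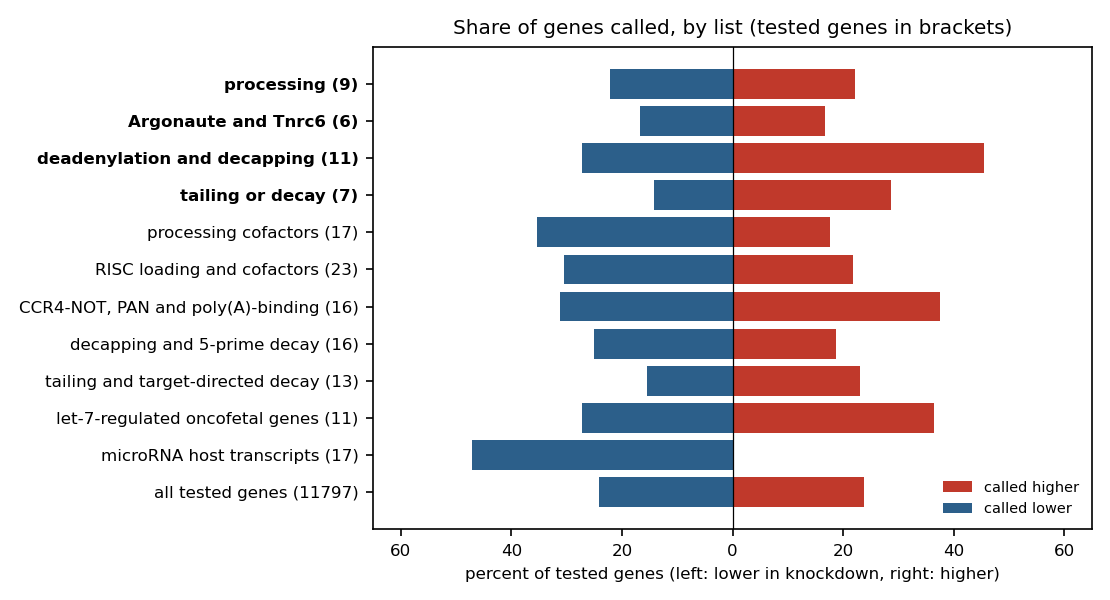
Percent of the tested genes of each list called higher (right) or lower (left) in the knockdown at an adjusted p under 0.05 by edgeR, with the number tested in brackets and the members' lists in bold. All tested genes were called at 23.8% higher and 24.1% lower; the shares of lists with 6 to 23 genes move by several points for each gene.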

How the data were processed

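The authors deposited raw read counts per gene symbol, 1 column per library, as unnormalized whole numbers. The submitters' processing notes name build mm10 and, without roles, the tools STAR, Bowtie, bcl2fastq 2.20, R 4.2.1 and DESeq2 1.36.0. How reads were counted, on which annotation and with which strand option is not given in the sources used here, so reads of genes that overlap on opposite strands cannot be told apart.

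The fit used edgeR 4.0.16 under R 4.3.3, with genes kept by filterByExpr (minimum count 10, total 15), TMM factors (0.991 to 1.01), glmQLFit and glmQLFTest on group alone, and Benjamini-Hochberg adjustment over 11797 genes, with adjusted p under 0.05 called. The fit was tested on simulated counts with known changes. Levels are TMM-scaled CPM, and exon length is the union of GENCODE M21 exons (GRCm38). Of the symbols, 23309 matched by current and 667 by older name, and 445 were unmatched or ambiguous. The text names all 34 members and, of each companion list, up to 2 genes per direction with the smallest adjusted p and a mean of at least 5 CPM. Cul3, Arih1, the elongins, HSP90, Hspa8 and Lin28a were named after their values were seen. The members and lists were chosen with earlier results of these data known. Within groups no library repeated another (chi-square per gene at least 1.73). Alternatives were other scalings, filters and thresholds, DESeq2 1.42.0, limma-voom (limma 3.58.1), a replicate block, centring of each chromosome, and leaving out each library.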

Additional observations from a re-analysis of the deposited data

Results flagged for a closer look

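In 118 groups of 4 libraries, from 59 genes, 9 held a library set far from the other 3, measured as its gap to the nearest library divided by the group's range. Chance alone gives about 1 in 20 such groups. Scrambled replicate 2 accounted for 3 of these. It was high for Dgcr8 (72.3 CPM, others 60.9 to 62.5, ratio 0.867) and low for Cnot1 (314 CPM, others 335 to 336, ratio 0.952) and for the cyclin Ccnd2 (486 CPM, others 530.6 to 539.6, ratio 0.831). Scrambled replicate 1 was high for Zcchc6 (92.5 CPM, others 89.1 to 89.6, ratio 0.840) and low for Trim71 (0.291 CPM, others 0.654 to 0.729, ratio 0.831). Knockdown replicate 2 was high for Trim71 (2.12 CPM, others 1.18 to 1.23, ratio 0.954) and for Tnrc6b (107 CPM, others 97.1 to 98.3, ratio 0.872). Knockdown replicate 3 was low for Tnrc6a (199 CPM, others 206 to 207, ratio 0.897), and knockdown replicate 4 for Zswim8 (91.8 CPM, others 93.7 to 94.1, ratio 0.834).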

How the results depend on the processing

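Of the 17 called members, Trim71, Pan2, Zcchc11 and Dcp2 kept direction and call in all 18 alternatives, and 13 did so in every fit that left out a library. The exceptions there were Ddx5, Ddx17, Dicer1 and Ago1. Under the filter of at least 1 CPM in 4 libraries, Trim71 passed through the knockdown libraries alone (scrambled at most 0.729 CPM). Its call under that filter is therefore no separate support. With 1 library left out, 10 to 12 members were called higher and 5 to 7 lower, and 2532 to 3002 and 2575 to 3002 of all genes. Tested against a fold of 1.2, 2 members were called higher and 2 lower (584 and 523 of all genes). With the replicate block 10 and 6 members were called (2762 and 2771 of all genes), losing Ago1. Same-numbered libraries were not correlated (−0.0350 to 0.0201), and 0 of 4 scrambled libraries correlated best with the knockdown library of its own number. Centring each chromosome reversed the sign of Drosha (0.0275), Ran (−0.0881), Ago2 (0.0302), Tnrc6a (0.00933), Cnot1 (−0.0647), Cnot7 (−0.0775), Edc4 (−0.0319), Xrn1 (0.0585), Parn (0.0538), Lsm4 (−0.00849) and Lsm6 (−0.0206). By its construction this subtracts the chromosome's median. Upper-quartile scaling turned Drosha (0.00307) and Ago2 (0.00552). Leaving out a library gave ranges that include 0 for Ago2 (−0.0731 to 0.0263), Tnrc6b (−0.00397 to 0.106), Dis3l2 (−0.103 to 0.00809) and Parn (−0.0448 to 0.000138), none of them called with all 8 libraries. Depth limits Trim71 and Ago4.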

Other observations

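Genes that let-7 is known to repress were listed because Lin28b, Trim71 and the uridylyltransferases belong to that pathway. Of 11 tested, 4 were called higher, 3 lower and 4 not called by edgeR, with a median log2 fold change of 0.04. The share called was 63.6%, beside 47.9% of all tested genes. Arid3a, a transcription factor, rose 2.05-fold (4.72 ± 0.421 against 9.66 ± 0.547 CPM, SD, n = 4, adjusted p = 1.52e-08), and Ccnd2, a D-type cyclin, 1.23-fold (522 ± 24.5 against 642 ± 6.50 CPM, adjusted p = 6.52e-09). Cdc25a, a cell-cycle phosphatase, fell by 0.26 (log2), from 86.0 ± 3.89 to 71.8 ± 1.41 CPM, and Igf2bp2, an RNA-binding protein, by 0.24 (171 ± 8.93 against 145 ± 2.59 CPM). The list did not move in 1 direction.

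Of 17 tested transcripts that host microRNAs, 0 were called higher, 8 lower and 9 not called by edgeR. The share called, 47.1%, is close to that of all tested genes (47.9%, with 23.8% higher and 24.1% lower). Their median log2 fold change was −0.08, beside 0.00170 over all tested genes. With chromosomes centred 1 was called higher and 7 lower, where 40.9% of all tested genes were called. Whether hosts differ from other genes in direction was not tested. Mest, the imprinted host of miR-335, fell by 0.68 (49.0 ± 2.31 against 30.5 ± 1.17 CPM, adjusted p = 8.25e-11) and shares 912 exon bases with Copg2 on the opposite strand. Pank3, a pantothenate kinase gene and host of miR-103, fell by 0.33 (206 ± 14.5 against 164 ± 0.314 CPM, adjusted p = 1.15e-07). Mir17hg, host of the miR-17 to miR-92a cluster, was not called (adjusted p = 0.107), but is the 1 host called higher with chromosomes centred (log2 fold change 0.19, adjusted p = 0.0224). It was named after its values were seen, as was the row 2010111I01Rik, which spans the miR-23b cluster (adjusted p = 0.0891).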
